A study of Mus musculus with 8 samples.

Results

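The antioxidant and Nrf2 target genes were a list of 37 genes, described here across the 8 arrays of a mouse brain series on drinking trehalose. Members were found by the gene symbol that the platform annotation gives each probe, with older or newer symbols of the same gene identifier counted. Of the 37 genes, 34 had a probe, out of 19321 gene symbols in the whole series, and they were read by 35 probes because Srxn1 had 2. No probe was listed for Gpx1, Prdx5 or Prdx6, so these 3 genes have no value here. A probe listed for the pseudogene Prdx6-ps2 was not counted. All 35 member probes lay above the blank limit, set 2 SD over the mean of the blank spots, on all 8 arrays and were tested.

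The series used male C57Bl/6J mice, 9 weeks old and acclimatized for 1 week, with no genetic change. The control group (water, day 0) held 2 mice, and mice that received trehalose, a disaccharide of glucose, for 1 day or for 10 days held 3 each, with 1 array per mouse. All mice, controls included, went without food for 6 h and were perfused under anesthesia before tissue was collected. The labels name the cerebral cortex as the tissue, while the design text names the left hemisphere. Water mice were sampled at day 0 only, so trehalose and the time of sampling cannot be told apart. Mice were housed 3 to a cage, and cage-mates are not stated. The p-values measure the spread between these mice only. In whole tissue, fewer cells of a type and less RNA per cell cannot be told apart.

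Nrf2, encoded by Nfe2l2, is a transcription factor that is held in the cytoplasm and marked for degradation by Keap1. When oxidants or electrophiles modify Keap1, Nrf2 accumulates, enters the nucleus and binds the antioxidant response element (ARE) near genes for heme oxygenase, quinone reductase and the glutathione and thioredoxin systems. Its activity is largely set at the protein level, which mRNA does not measure. In the brain this pathway is known to be more active in astrocytes than in neurons. Metallothioneins are small cysteine-rich proteins that bind zinc and copper, and Mt1 and Mt2 respond to metals through the metal response element (MRE).

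The promoter stretches below are shown because they hold the letters of the ARE core TGACNNNGC or the MRE core TGCGCNC or TGCACNC. The list itself was made by gene symbol and not by these motifs. Both were searched on both strands in RefSeq windows of 300 bases (250 before to 50 after each gene's start, GRCm38.p6). The table held 42 windows of 30 members. The ARE core was found in 8 of these 30 genes (26.7%), against 14.0% of all genes in the table, and the MRE core in 11 of 30 (36.7%), against 28.2%. Genes with more windows have more chances of a match. Counted by window, the ARE core was in 8 of 42 (19.0%), against 12.4% of all windows, and the MRE core in 13 of 42 (31.0%), against 25.7%. A match is only a match of letters, and the ARE core can also contain the letters of an AP-1 site. Each line runs 5′ to 3′ on the strand of the gene, and capitals mark the matches of the motif that the line names. A match written in reverse complement starts with GC for the ARE core.
Nfe2l2 (ARE core, chr2:75704870-75704913, minus strand): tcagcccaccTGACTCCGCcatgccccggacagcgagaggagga
Gclm (ARE core, chr3:122245398-122245456, plus strand): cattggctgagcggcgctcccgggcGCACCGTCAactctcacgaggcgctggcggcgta
Prdx1 (ARE core, chr4:116685441-116685499, plus strand): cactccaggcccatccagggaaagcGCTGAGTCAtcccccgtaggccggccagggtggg
Txnrd1 (ARE core, chr10:82859089-82859147, plus strand): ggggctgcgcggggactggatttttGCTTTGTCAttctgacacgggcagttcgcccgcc
Srxn1 (ARE core, chr2:152105542-152105570, plus strand, after the gene's start): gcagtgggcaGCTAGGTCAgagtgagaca
Mt1 (3 MRE cores, chr8:94179041-94179118, plus strand): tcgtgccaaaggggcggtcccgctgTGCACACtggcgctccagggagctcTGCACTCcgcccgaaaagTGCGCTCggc
Mt2 (4 MRE cores, chr8:94172370-94172647, plus strand): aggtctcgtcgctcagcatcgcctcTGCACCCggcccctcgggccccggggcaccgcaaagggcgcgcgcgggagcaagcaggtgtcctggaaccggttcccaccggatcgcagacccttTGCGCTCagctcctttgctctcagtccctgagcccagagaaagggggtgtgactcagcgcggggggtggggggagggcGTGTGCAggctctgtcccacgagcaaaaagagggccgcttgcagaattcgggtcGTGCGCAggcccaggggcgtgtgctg
The other ARE core matches were in Gstm5, Sod1 and Mt2. The window of Nqo1 held no ARE core match, and Hmox1 and Gclc had no window. The match in Mt2 lies within its line in lower case. In Gclm the ARE core overlapped 1 of 3 MRE core matches, and this one is in capitals only where they overlap. The rest of the MRE core matches in Gclm lie outside the stretch printed. In the Mt1 line only the first MRE core match lies before the gene's start. In the Mt2 line the last MRE core match lies after it.

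The 8 arrays were much alike, with correlations of log2 intensity between 0.994 and 0.998 across tested probes. All 9 probes of the cerebral cortex marker list lay above the blank limit on every array. Their mean log2 intensity was 7.78 to 7.79 in control, 7.70 to 7.73 after 1 day and 7.71 to 7.72 after 10 days. The control arrays thus lay above both trehalose groups, with 7 of 9 probes lower at each time and 0 past the test. At an unadjusted limma p under 0.05 stood 1 of the 9 (11.1%) after 10 days, against 2.00% of all tested probes. The array of trehalose 1 day replicate 2 stood apart in markers of the striatum, with a mean log2 intensity of 8.23 over 8 probes against 9.05 to 9.48 on the other arrays. The mean over 10 choroid plexus probes was also highest on that array, at 8.11. It was 7.67 to 7.86 in control, 7.65 to 8.11 after 1 day and 7.84 to 7.92 after 10 days. Of the 10 probes, 8 were higher than control after 1 day and 10 after 10 days, with 0 past the test. An unadjusted limma p under 0.05 was found for 1 (10%) after 1 day, 0 after 10 days and 2 (20%) at either time. The shares of all tested probes were 3.65%, 2.00% and 2.63%. Thalamus markers were at 7.61 to 7.75 in control, 7.82 to 8.05 after 1 day and 7.80 to 7.88 after 10 days, so the control arrays lay below both trehalose groups, with 0 of 11 tested probes past the test in any comparison. At an unadjusted limma p under 0.05 stood 4 of the 11 (36.4%) after 1 day, 3 (27.3%) after 10 days and 4 (36.4%) at either time, against 3.65%, 2.00% and 2.63% of all tested probes. Red blood cell markers varied widely within groups, at 7.34 to 8.41, 8.15 to 9.10 and 7.19 to 9.28. The mean over 13 astrocyte probes stayed between 9.42 and 9.51 on all 8 arrays. Of these probes 9 were lower than control after 1 day and 6 after 10 days, with 0 past the test. An unadjusted limma p under 0.05 was reached by 1 (7.69%) after 1 day, 0 after 10 days and 1 (7.69%) at either time. Of all tested probes these shares were 3.65%, 2.00% and 2.63%. The marker lists were chosen with earlier results of these data known, and the part of these markers in any member's value was not tested.

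No antioxidant or Nrf2 target gene passed the test in any comparison. By limma with Benjamini-Hochberg adjustment, 0 of 35 member probes had an adjusted p under 0.05 after 1 day, after 10 days, between the times or for trehalose at either time against control. The background was the same, since 0.00% of the 21583 tested probes passed in each of the 4 comparisons. Before adjustment, 0 of 35 members had a p under 0.05, against 3.65% of all probes after 1 day, 2.00% after 10 days, 3.50% between the times and 2.63% at either time. Log2 changes of the members from control lay between -0.15 and 0.18 after 1 day and between -0.17 and 0.13 after 10 days. Their median was 0.03 after 1 day, with 21 of 35 positive, and -0.003 after 10 days, with 17 positive. Over all tested probes both medians were near 0, at -0.0003 and -0.002.

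The intervals give a range for changes of these processed log2 values. They do not bound changes of mRNA, since the background offset compresses changes of dim probes. They also hold for this processing only. With the local background deposited for each spot, the largest member log2 change was 1.48 in size after 1 day and 1.51 after 10 days. After 1 day, the 95% interval of 34 of 35 members lay within a 1.5-fold change in either direction, and after 10 days that of 35 of 35. Within 1.25-fold lay 26 and 27 of the 35, or 74.3% and 77.1%, against 87.9% and 89.7% of all tested probes. The exception at 1.5-fold was Txn2 after 1 day, with an interval of -0.67 to 0.37 on the log2 scale. Members were spread more widely within groups than most probes, with a median pooled SD of 0.105 against 0.0639 over all tested probes. The median half-width of a member's interval against control was 0.193, against 0.130 over all. Members were not matched to all probes for intensity in these comparisons, and the offset also compresses the spread of dim probes. The part of brightness in these differences was not tested.

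**Figure D1:**
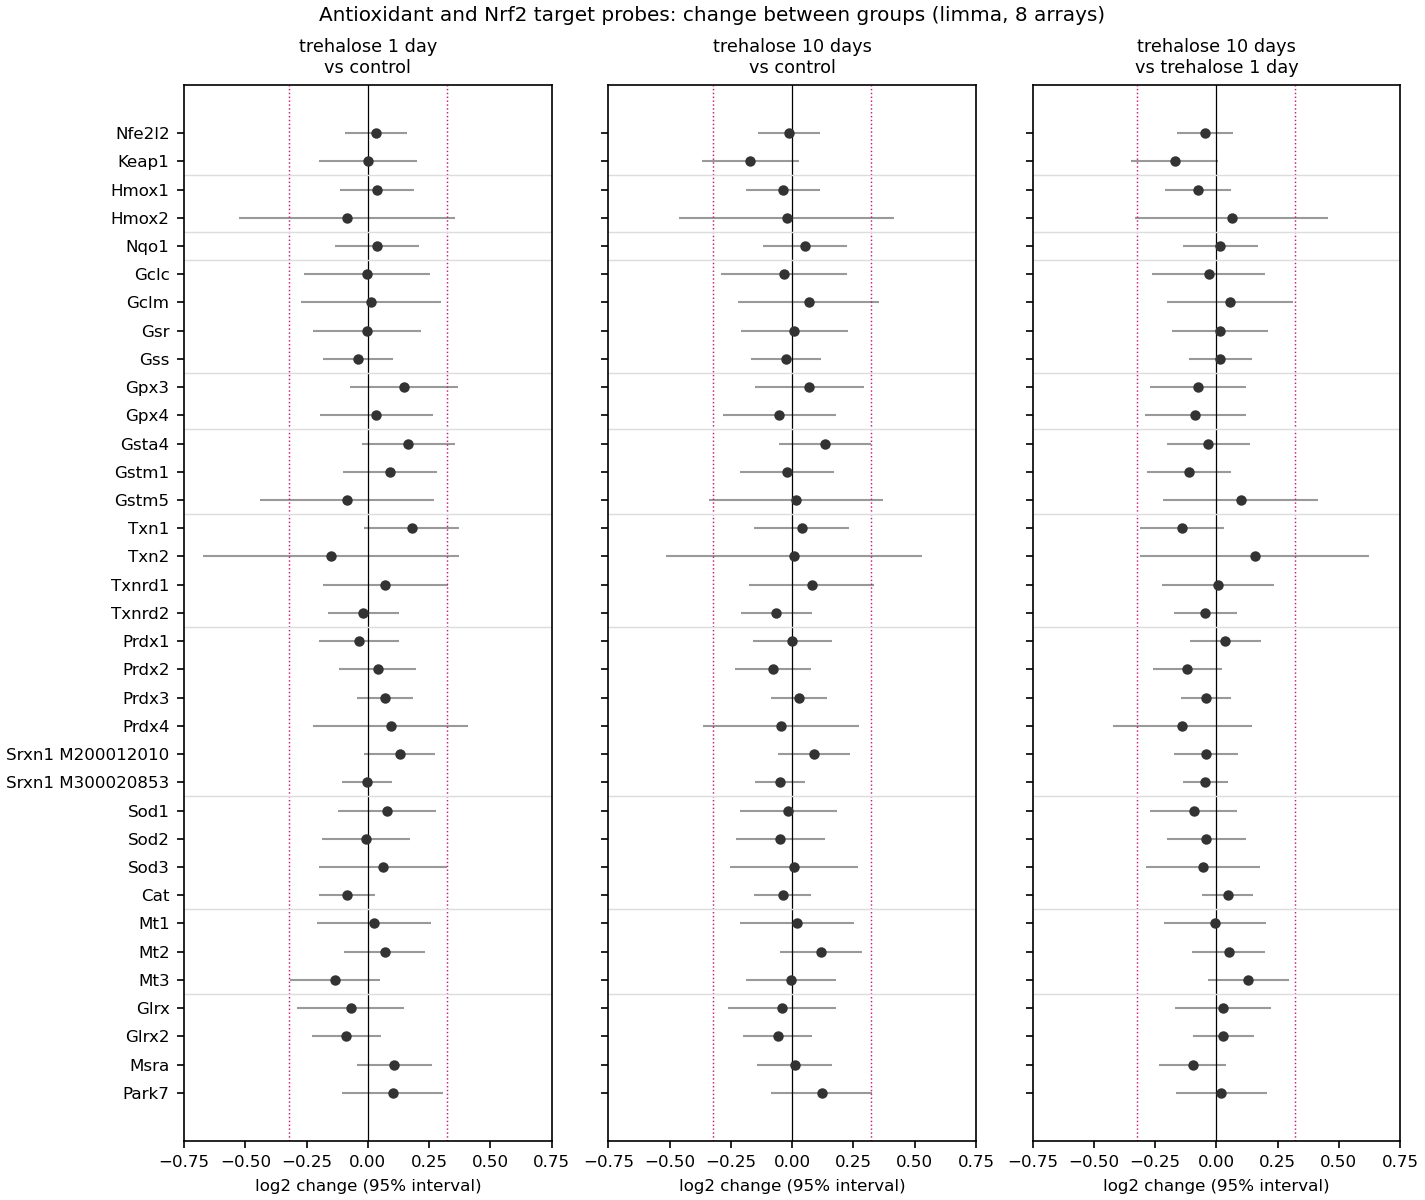
Log2 change of each of the 35 member probes (points) with its 95% interval from limma (lines) in 3 comparisons, with dotted lines at a 1.25-fold change. Every interval spans 0, and those of Txn2 against control are the widest, from -0.67 to 0.37 after 1 day and from -0.52 to 0.53 after 10 days.

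The plot of changes by comparison shows the members grouped by class, with every point within 0.18 of 0. Groups that do not overlap between individual arrays were no more common among members than elsewhere. After 1 day, 6 of 35 members (17.1%) had no overlap with control, against 18.2% of all tested probes. On the higher side were 3 (8.57%, against 8.97% of all), Txn1, Prdx3 and Park7, and on the lower side 3 (8.57%, against 9.19%), Cat, Mt3 and Glrx2. After 10 days there were 3 of 35 (8.57%), against 13.4% of all. Gpx3 was higher (2.86%, against 6.46%), and Keap1 and 1 probe of Srxn1 were lower (5.71%, against 6.97%). Between the times, 0 of 35 did not overlap, against 8.39% of all tested probes, and for either time against control 0 of 35, against 4.73%.

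Among the regulators, Nfe2l2 varied as much within groups as between them. Its log2 intensity was 7.29 and 7.42 in control, 7.31, 7.42 and 7.43 after 1 day and 7.34, 7.30 and 7.38 after 10 days. All 3 groups overlapped, and the log2 change was 0.03 (95% interval -0.09 to 0.16) after 1 day and -0.01 (-0.14 to 0.11) after 10 days. Keap1, which encodes the adaptor that targets Nrf2 for degradation, was the member with the lowest p in any comparison. Log2 intensity of Keap1 was 8.63 and 8.70 in control, 8.52, 8.66 and 8.81 after 1 day and 8.40, 8.49 and 8.57 after 10 days. The 3 arrays at 10 days lay below both control arrays, while those at 1 day spanned them. The log2 change of Keap1 at 10 days was -0.17 (SE 0.09, 95% interval -0.37 to 0.03) from control and -0.17 (SE 0.08, -0.35 to 0.01) from 1 day, with limma adjusted p of 1.0 for both.

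The classic inducible targets showed the same picture. Hmox1 encodes the inducible heme oxygenase, which breaks down heme. Hmox1 measured 7.11 and 7.22 in control, 7.21, 7.26 and 7.14 after 1 day and 7.12, 7.22 and 7.04 after 10 days as log2 intensity. The groups overlapped, with a log2 change of 0.04 (-0.11 to 0.19) after 1 day and -0.04 (-0.19 to 0.11) after 10 days. Nqo1, the quinone reductase often used as a readout of Nrf2, read 6.64 and 6.71 in control, 6.69, 6.85 and 6.60 after 1 day and 6.78, 6.75 and 6.66 after 10 days, all as log2 intensity. Its groups also overlapped, with log2 changes of 0.04 (-0.13 to 0.21) and 0.05 (-0.12 to 0.22). The Nqo1 spots were the nearest to background among the members, at 2.11 to 2.79 times the blank limit, and a change in such a dim probe is compressed by the background offset. Hmox2 encodes the constitutive heme oxygenase and was singled out after its values were seen. It read 9.54 and 9.77 as log2 intensity on the replicate 1 arrays of the trehalose groups and 9.97 to 10.16 on the other 6 arrays.

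**Figure D2:**
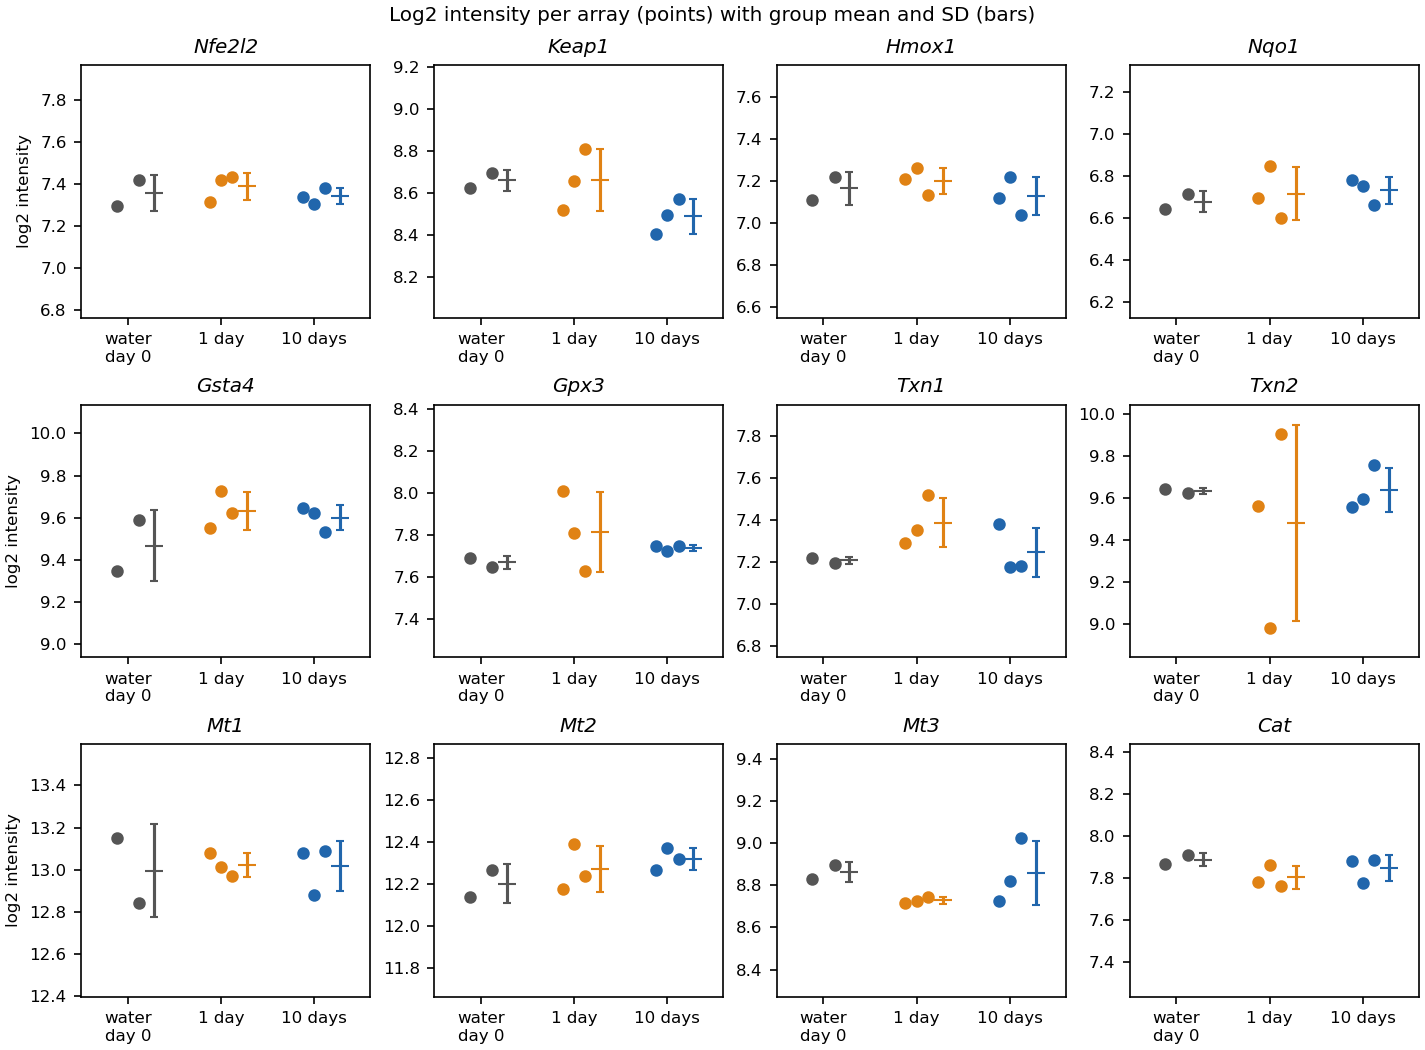
Log2 intensity on each array (points) of 12 members, with the group mean and SD (bars), for water at day 0 (n = 2) and trehalose for 1 day and 10 days (n = 3 each). The 3 groups of Nfe2l2, Hmox1 and Nqo1 overlap, the 10 day arrays of Keap1 lie below both controls, and Txn2 has 1 low array at 8.98.

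The plot of single values gives the same numbers for the regulators, targets and metallothioneins, on axes that do not start at 0. Glutathione is made in succession by glutamate-cysteine ligase, of which Gclc encodes the catalytic and Gclm the modifier subunit, and glutathione synthetase (Gss), and is reduced again by glutathione reductase (Gsr). The log2 changes of these 4 genes lay between -0.04 and 0.01 after 1 day and between -0.03 and 0.07 after 10 days. Averaged over the 4 probes, single arrays lay between -0.09 and 0.07 of the control mean, with both signs in every group. Gss had the lowest p of the class, with log2 intensities of 7.57 and 7.51 in control, 7.45, 7.60 and 7.45 after 1 day and 7.59, 7.44 and 7.52 after 10 days. These overlapped in all groups, and the log2 change after 1 day was -0.04 (-0.18 to 0.10). The intervals were wider for the ligase, at -0.26 to 0.25 for Gclc and -0.27 to 0.30 for Gclm after 1 day.

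Gpx3, the secreted glutathione peroxidase, read 7.69 and 7.65 in control, 8.01, 7.81 and 7.63 after 1 day and 7.75, 7.72 and 7.75 after 10 days as log2 intensity. The highest array was trehalose 1 day replicate 1, and the 10 day arrays lay just above both controls. The log2 change was 0.15 (-0.07 to 0.37) after 1 day and 0.07 (-0.15 to 0.29) after 10 days. The first of these was 0.05 without trehalose 1 day replicate 1 and 0.24 without trehalose 1 day replicate 3, both with limma adjusted p of 1.0. Gpx4, which removes lipid peroxides from membranes, had log2 changes of 0.03 and -0.05.

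Among the glutathione transferases, Gsta4, which acts on the lipid peroxidation product 4-hydroxynonenal, had the lowest p. That p was for trehalose at either time against control, with a log2 change of 0.15 (-0.02 to 0.32). Log2 intensity of Gsta4 was 9.35 and 9.59 in control, 9.55, 9.73 and 9.62 after 1 day and 9.65, 9.62 and 9.53 after 10 days. The groups overlapped through control replicate 2, which lay inside the range of both trehalose groups. The log2 change was 0.17 (-0.02 to 0.35) after 1 day and 0.13 (-0.06 to 0.32) after 10 days. The size rested on the control arrays: these changes were 0.04 and 0.01 without control replicate 1, and 0.29 and 0.25 without control replicate 2, each with limma adjusted p of 1.0. Gstm1 and Gstm5, mu class transferases with close relatives that their probes may also read, had log2 changes of 0.09 and -0.08 after 1 day and -0.02 and 0.01 after 10 days.

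In the thioredoxin system, Txn1 encodes cytosolic thioredoxin, the small dithiol protein that reduces peroxiredoxins. Its log2 intensity was 7.22 and 7.20 in control, 7.29, 7.35 and 7.52 after 1 day and 7.38, 7.18 and 7.18 after 10 days. All 3 arrays at 1 day lay above control, and those at 10 days lay on both sides of it. The log2 change after 1 day was 0.18 (SE 0.08, -0.01 to 0.37), a 1.13-fold difference and the largest of any member in that comparison, with a limma adjusted p of 1.0. It was 0.11 when the highest array, trehalose 1 day replicate 3, was left out. After 10 days it was 0.04 (-0.15 to 0.23). Txnrd1 and Txnrd2 encode the cytosolic and mitochondrial thioredoxin reductases, and their log2 changes were 0.07 and -0.02 after 1 day and 0.08 and -0.06 after 10 days.

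Txn2, the mitochondrial thioredoxin, was singled out after its values were seen because 1 array set its spread. Its log2 intensity was 9.64 and 9.62 in control, 9.56, 8.98 and 9.90 after 1 day and 9.56, 9.60 and 9.76 after 10 days. The low value, 8.98, came from trehalose 1 day replicate 2, the array with low striatum markers, and the highest, 9.90, from another array of the same group. The log2 change after 1 day was -0.15 (-0.67 to 0.37) with that array and 0.10 without it. Whether the striatum markers bear on Txn2 was not tested.

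Peroxiredoxins reduce hydrogen peroxide, and sulfiredoxin (Srxn1) restores them after overoxidation. The log2 changes of the 6 probes of Prdx1 to Prdx4 and Srxn1 lay between -0.04 and 0.13 after 1 day and between -0.08 and 0.09 after 10 days. Srxn1 probe M200012010 read 8.52 and 8.69 in control, 8.77, 8.76 and 8.68 after 1 day and 8.68, 8.77 and 8.65 after 10 days as log2 intensity, and control replicate 1 was the lowest of the 8. Its log2 change after 1 day was 0.13 (-0.02 to 0.28), which was 0.04 without control replicate 1 and 0.22 without control replicate 2. The other Srxn1 probe, M300020853, had a log2 change of -0.003 (-0.11 to 0.10) after 1 day and -0.05 after 10 days. The probes thus differed in sign at both times while both intervals spanned 0. Prdx3, the mitochondrial member, had the narrowest interval of the Prdx genes after 1 day, with a log2 change of 0.07 (-0.04 to 0.18).

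Superoxide dismutases turn superoxide into hydrogen peroxide, in the cytosol (Sod1), the mitochondria (Sod2) and outside the cell (Sod3). Their log2 changes were 0.08, -0.01 and 0.06 after 1 day and -0.02, -0.05 and 0.01 after 10 days. Catalase (Cat), which breaks down hydrogen peroxide in peroxisomes, read 7.87 and 7.91 in control, 7.78, 7.86 and 7.76 after 1 day and 7.88, 7.78 and 7.89 after 10 days as log2 intensity. The arrays at 1 day lay just below control and those at 10 days overlapped it. The log2 change of Cat was -0.09 (-0.20 to 0.03) after 1 day and -0.04 (-0.15 to 0.08) after 10 days.

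The metallothioneins differed little between groups in the main processing. Mt1 read 13.15 and 12.84 in control, 13.08, 13.01 and 12.97 after 1 day and 13.08, 12.88 and 13.09 after 10 days as log2 intensity. The control mice spanned both trehalose groups, and the log2 change was 0.03 (-0.21 to 0.26) and 0.02 (-0.21 to 0.25). Mt2 read 12.14 and 12.27 in control, 12.18, 12.39 and 12.24 after 1 day and 12.27, 12.37 and 12.32 after 10 days. Its groups overlapped, with log2 changes of 0.07 (-0.10 to 0.23) and 0.12 (-0.05 to 0.28). The second was 0.05 without control replicate 1 and 0.18 without control replicate 2. These 2 genes depended on the processing. With the deposited local background, the log2 changes after 1 and 10 days were -1.24 and -1.41 for Mt1 and 0.68 and 0.59 for Mt2. Mt1 and Mt2 are close in sequence, so how far each probe reads the other is uncertain.

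Mt3, the metallothionein made mainly in the nervous system, read 8.83 and 8.90 in control, 8.72, 8.73 and 8.74 after 1 day and 8.73, 8.82 and 9.03 after 10 days as log2 intensity. The arrays at 1 day were tightly grouped below control, while those at 10 days reached both lower and higher than control. The log2 change from control was -0.13 (-0.32 to 0.05) after 1 day and -0.003 (-0.19 to 0.18) after 10 days. Between the times it was 0.13 (-0.03 to 0.29), the change with the lowest p among the metallothioneins. Averaged over the 3 metallothionein probes, single arrays lay between -0.04 and 0.13 of the control mean.

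Among the glutaredoxins and repair enzymes, Msra, which reduces oxidized methionine, had the lowest p. That p was between the times, with a log2 change of -0.10 (-0.23 to 0.04) for Msra. Its log2 intensity was 8.09 and 7.95 in control, 8.08, 8.21 and 8.10 after 1 day and 8.12, 8.00 and 7.97 after 10 days, with overlap between all groups. The log2 change from control was 0.11 (-0.04 to 0.26), or 0.18 and 0.04 without control replicate 1 and 2, after 1 day and 0.01 (-0.14 to 0.16) after 10 days. Park7 encodes DJ-1, a redox-sensitive protein linked to inherited parkinsonism, and had log2 changes of 0.10 (-0.11 to 0.31) and 0.12 (-0.09 to 0.33). Glrx and Glrx2, the cytosolic and mitochondrial glutaredoxins, had log2 changes of -0.07 and -0.09 after 1 day and -0.04 and -0.06 after 10 days.

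Between the 2 times, 15 of 35 members were positive and 20 negative, with a median log2 change of -0.03. The members with the largest differences below 0 were Keap1, described above, and Txn1 and Prdx4, each with -0.14 and intervals of -0.31 to 0.03 and -0.42 to 0.14. Prdx2, singled out after its values were seen, had -0.12 (-0.26 to 0.02) and read 11.48, 11.41 and 11.43 after 1 day and 11.24, 11.29 and 11.45 after 10 days as log2 intensity. Its array of trehalose 10 days replicate 3 lay within the 1 day group. The log2 change was -0.18 without that array and -0.07 without trehalose 10 days replicate 1, with limma adjusted p of 1.0 and 0.896. The positive end was held by Txn2, at 0.16 (-0.31 to 0.62), which was -0.09 without trehalose 1 day replicate 2. For trehalose at either time against control, 18 of 35 members were positive and their median log2 change was 0.003. These comparisons share arrays with the ones above and are not separate evidence.

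**Figure D3:**
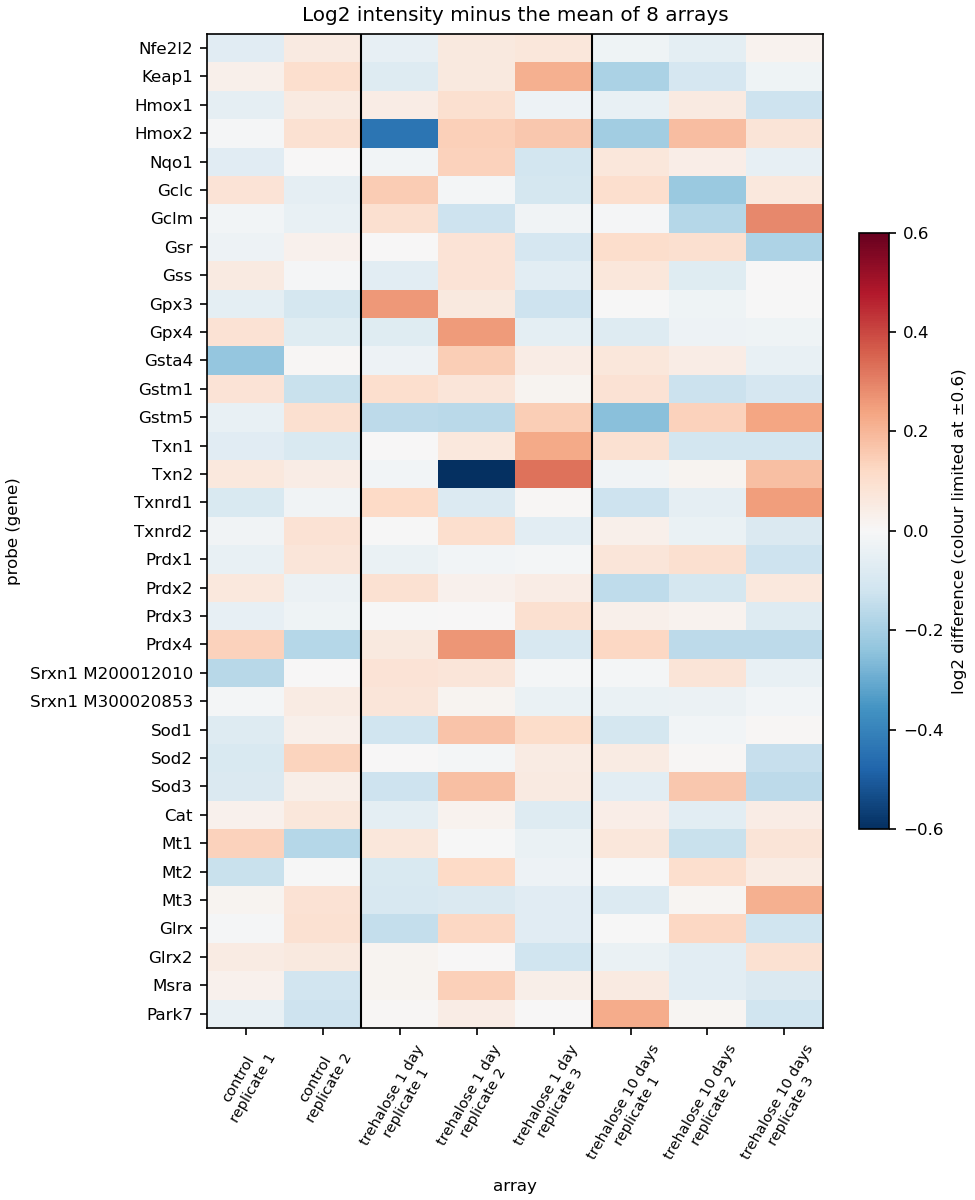
Log2 intensity of each member probe on each array minus its mean over the 8 arrays, with colours limited at a difference of 0.6 in either direction and vertical lines between the groups. Hmox2 and Txn2 differ more among the arrays of the 1 day group than their group means differ from control.

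The map of members by array shows no column that is uniformly red or blue. Averaged over the 35 probes, the arrays deviated by -0.02 to 0.04 on the log2 scale, with trehalose 1 day replicate 2 the highest. Each sample's description starts with a number from 1 to 8, which alternates between the groups and whose meaning the labels do not give. It runs in step with the replicate number, since 1 to 3 are replicate 1, 4 to 6 replicate 2 and 7 and 8 replicate 3, so a slope on it cannot be told apart from differences between replicate numbers. In a limma model with the groups, 7 of 35 member probes (20.0%) had an unadjusted p under 0.05 for a slope on this number, against 10.9% of all tested probes. After adjustment 0 of 35 and 0.00% of all passed. This slope was examined after the values were seen.

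Keap1 had the lowest p for this slope, with a log2 intensity higher by 0.0366 (SE 0.00704) per step and a limma adjusted p of 0.225. Gstm5 had a slope of 0.0641 (SE 0.0133) and Hmox2 one of 0.0697 (SE 0.0219), with adjusted p of 0.225 and 0.335. Gstm1 ran the other way, at -0.0281. The remaining members with an unadjusted p under 0.05 were Sod1 and Mt3 with positive slopes and Park7 with a negative one. With the number in the model, the log2 change of Keap1 was -0.19 from control and -0.21 from 1 day at 10 days, with limma adjusted p of 1.0 and 0.996. Over all the other settings of processing and model, the change of Keap1 at 10 days ran from -0.23 to 0.09 from control. From 1 day it ran from -0.68 to -0.12.

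**Figure D4:**
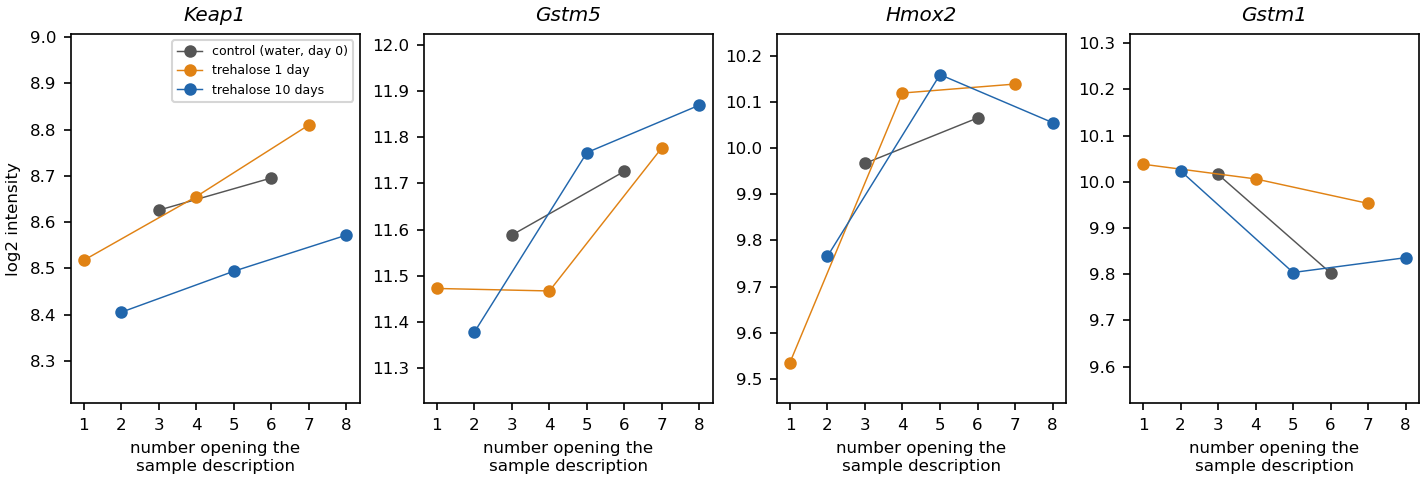
Log2 intensity of Keap1, Gstm5, Hmox2 and Gstm1 against the number (1 to 8) at the start of a sample's description, with lines joining arrays of 1 group. Keap1 is higher at higher numbers in all 3 groups, from 8.40 to 8.57 after 10 days, and Gstm1 has a negative slope of -0.0281 per step.

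The plot against description number shows that the 10 day array of Keap1 was the lowest at each replicate number. Its log2 intensity was 8.40 against 8.52 and 8.63 in replicate 1, 8.49 against 8.66 and 8.70 in replicate 2, and 8.57 against 8.81 in replicate 3. Keap1 was picked for its low p on these same values, so this order is not separate evidence. The share of all tested probes with such an order was not counted.

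Of a wider list of 50 other Nrf2 and antioxidant genes, 45 had a probe, and 0 of their 48 probes passed the test in any comparison. The log2 change was positive for 29 of 48 after 1 day and 25 of 48 after 10 days, with medians of 0.02 and 0.001. Higher at an unadjusted limma p under 0.05 were 5 of 48 after 1 day (10.4%), against 2.02% of all tested probes. These 5 were Slc3a2, Ephx1, Idh1, Rbx1 and Gstt1. After 10 days there were 3 of 48 (6.25%), against 1.23%, with 0 lower at either time. This list, like the others here, was chosen with earlier results of these data known, so these shares are not separate evidence.

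Idh1, the cytosolic isocitrate dehydrogenase that makes NADPH, read 7.91 and 7.99 in control, 8.05, 8.25 and 8.26 after 1 day and 8.20, 8.23 and 8.08 after 10 days as log2 intensity. All 6 trehalose arrays lay above both controls. Of all tested probes, 4.73% did not overlap between trehalose at either time and control, counting both directions. The log2 change of Idh1 was 0.23 (SE 0.07, 0.06 to 0.40) after 1 day and 0.22 (SE 0.07, 0.05 to 0.39) after 10 days, with limma adjusted p of 1.0. Gstt1, a theta class glutathione transferase, had log2 changes of 0.21 (0.07 to 0.35) and 0.18 (0.04 to 0.32), also with the 6 trehalose arrays, at 7.54 to 7.73, above the controls, at 7.44 and 7.50. Pgd, an NADPH-making enzyme of the pentose phosphate pathway, had 0.13 (-0.01 to 0.26) and 0.15 (0.01 to 0.28). Between the times, Txnrd3 had a log2 change of -0.13 (-0.24 to -0.02) and Me1, malic enzyme, one of -0.16 (-0.29 to -0.03). None of these 5 genes, named for having the lowest p of their list, passed the test. Under the other processing settings, the log2 change after 1 day ran from -0.14 to 0.29 for Gstt1 and from 0.22 to 0.72 for Idh1. The change between the times ran from -1.36 to -0.10 for Me1 and from -0.57 to -0.07 for Txnrd3. The thalamus markers also lay above control in both trehalose groups, and the cortex markers lay below it. Neither was tested as a part of these genes.

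Of 16 metal and glucocorticoid response genes, 15 had a probe and 15 probes were tested, of which 0 passed. At an unadjusted p under 0.05 there was 1 of 15 (6.67%) between the times, against 3.50% of all tested probes, and 0 in the other comparisons. After 1 day 3 of 15 were positive and after 10 days 9. Klf9, a transcription factor gene induced by glucocorticoids, had the lowest p, with a log2 change of 0.19 (0.06 to 0.31) from 1 day to 10 days and a limma adjusted p of 1.0. Under the other processing settings, this change of Klf9 ran from -0.004 to 0.27. Sgk1, a kinase gene induced by the same hormones, was widely spread, at 9.73 to 10.71 after 1 day as log2 intensity against 10.39 and 10.86 in control. The other 3 with the lowest p were Slc30a3 and Slc39a10, which encode zinc transporters, and Pdk4, a kinase gene of fuel choice. Their log2 changes after 1 day were -0.02, -0.01 and -0.06, and after 10 days -0.08, 0.15 and 0.04.

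These values hold for the spot signal with a background estimated over the whole array. When the deposited local background was used instead, 18 of 35 members changed sign after 1 day and 12 after 10 days, and log2 changes reached 1.51 in size, though 0 of 35 passed the adjusted threshold. That background column followed the spots themselves, with correlations of 0.943 to 0.985.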

How the data were processed

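RNA from 8 brains was hybridised, 1 sample per one-colour array. Per the file headers, the deposited scanner files hold spot and local background intensity in 1 channel, read at 3 gains. Per the labels' protocols, Trizol-extracted total RNA was amplified with amino allyl labels and coupled to Cy5. Image software and scan date are not given in the sources used here. From the deposited intensity, log2 values were computed with limma 3.58.1 in R 4.3.3: normexp background correction (offset 50, which compresses changes of dim probes), quantile normalization and averaging of spots of a probe. Spots that failed a flag were set to missing (10 probe spots, 0 of members). Of 23473 probes, 21583 lay above the mean plus 2 SD of blank spots on at least 2 arrays and were tested. Of 20690 annotated probes, 20556 matched the reference table by gene identifier. Array number limits the precision.

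One limma model held the 3 groups and 8 arrays, with 5 residual degrees of freedom, and p-values were Benjamini-Hochberg adjusted over all tested probes at 0.05. The procedure was tested on simulated data. Members, gene lists and classes were chosen with earlier results of these data known. Array values were given for Nfe2l2, Keap1, Hmox1, Nqo1, the metallothioneins and the lowest-p probe of each class. Of the other lists, up to 5 genes with the lowest p were named. Alternatives changed background, offset, normalization, filter, weights, model and arrays, and used the authors' deposited intensity table, of which all 35 member probes had values. Promoters came from RefSeq (GRCm38.p6), which held none for Hmox1, Gclc, Gsr, Gsta4, Prdx6, Sod3 or Msra in the table used.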

Additional observations from a re-analysis of the deposited data

How the results depend on the processing

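The number of member probes past the adjusted threshold was 0 under every alternative run, in all 4 comparisons. Over all probes, counts past it were 1 at 10 days and 1 between the times with the blank mean subtracted, also 1 and 1 with a trend and robust fit, and 0 to 2 when single arrays were left out (2 without control replicate 1, in the 3 comparisons with control).

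Members at an unadjusted p under 0.05, in the order 1 day, 10 days, between the times and either time, numbered 7, 7, 5 and 7 of 35 with the local background column (20.0%, 20.0%, 14.3% and 20.0%), against 6.96%, 5.16%, 7.39% and 5.75% of all tested probes. With that column, Gstm5, Prdx1, Prdx4, Srxn1, Mt1 and Mt2 were among them in each comparison with control. Between the times they were Nfe2l2, Keap1, Hmox1, Txn1 and Prdx3. With median scaling there was 1 (Txn1) at 1 day and 1 (Keap1) between the times (2.86%), against 3.10% and 2.79% of all. Array weights gave 1 (Prdx2) between the times, against 4.12%. With only the groups compared there were 2 (Txn1, Mt3; 5.71%) and 1 (Keap1; 2.86%) at 1 and 10 days, against 4.70% and 1.81%. With the description number as covariate there was 1 (Keap1) at 10 days and 1 between the times, against 2.50% and 4.35%. Leaving out single arrays gave 0 to 3, 0 to 2, 0 to 4 and 0 to 2 members, beside 2.27% to 4.70%, 1.81% to 3.51%, 2.97% to 5.56% and 2.12% to 3.68% of all.

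The labels give same-numbered samples no shared animal, litter or day. The deviations of 6 of 7 same-numbered pairs correlated over 0.1, 1 pair did not (-0.02), and 7 of 8 arrays correlated best with their own number, a hint from the data and not from the design. With the replicate number as a block, 3 members (Gsta4, Srxn1, Mt3; 8.57%) had an unadjusted p under 0.05 at 1 day, 2 (Keap1, Mt2; 5.71%) at 10 days, 1 (Keap1; 2.86%) between the times and 4 (Keap1, Gsta4, Srxn1, Mt2; 11.4%) at either time, against 4.31%, 2.83%, 5.27% and 3.24% of all tested probes.

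Signs were opposite to the reported ones in 4, 5, 10 and 3 of 35 members with the authors' table. The lowest adjusted p of a member under any alternative was 0.460, at 1 day with the local background. Signal over background was lowest for Nqo1, at 2.11 times the blank limit.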
